A study of Homo sapiens with 12 samples.

Results

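PMA-treated THP-1 cells and H1299 cells were compared gene by gene in the labelled-control libraries of a series on tumour cells and macrophages, to describe which expression programmes tell the macrophage-like line from the carcinoma line. Members were chosen by label alone: the 3 THP-1 libraries and the 3 H1299 libraries that carry the control label, 6 of the 12 libraries of the series. Of 20307 genes in the deposited table, 13892 had enough reads to be tested. H1299 is a human non-small-cell lung carcinoma line, and these libraries carry the genotype label WT with no treatment. THP-1 is a human monocytic leukaemia line, also labelled WT, which received the phorbol ester PMA for 24 h and was then kept for 48 h with the H1299 control. The design text describes that step as co-culture and the sample label as supernatant, so it cannot be told whether the cells touched. The other 6 libraries pair the same lines under a DCBLD2 overexpression label for H1299. They share no library with the comparison and served as a second pair of groups. Cell lineage, PMA and the culture step differ together between the groups and cannot be told apart. Each line stands for the tumour of 1 person, and whether the 3 libraries of a group were grown separately is not labelled, so the p-values speak only to how far these libraries scatter.

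Monocytes become macrophages when PMA, an activator of protein kinase C, stops their division and makes them adhere, and THP-1 is the standard cell line in which this is done. The transcription factor PU.1 and its partners of the C/EBP, IRF and MAF families hold the myeloid programme: receptors for antibodies and microbes, leukocyte integrins, lysosomal enzymes and secreted inflammatory proteins. Carcinoma cells of the lung derive from epithelium, keep simple keratins to a varying degree, divide without such a stop, and may switch on genes that are otherwise silent outside the germ line.

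The summed estimated counts ranged from 19572131 to 23388187 for H1299 and from 20046869 to 24111179 for THP-1, and 11687 to 11866 genes reached 1 TPM (a level scaled by transcript length and library total) in each. The 3 THP-1 libraries lay close to counting noise, with a spread of 1.44% beyond it, against 15.4% in H1299, and all pairs differed by more than counting noise. The summed level of 14 macrophage-like markers was 6867 to 6925 TPM in THP-1 and 139 to 142 TPM in H1299, where 2 markers, PTPRC and MRC1, had 0 counts and CD68 made up 135 to 138 TPM of the sum. Of the 11 carcinoma markers, 8 were at 1 TPM or more in every H1299 library and 5 in every THP-1 library. Their sum was 2420 to 2577 TPM in H1299 and 187 to 199 TPM in THP-1, of which CAV1, present in both lines, was 146 TPM on average. Lymphoid markers summed to 7.89 to 8.9 TPM in THP-1, nearly all from NKG7, with CD3E and MS4A1 at 0, and the erythroid marker HBB was at 0 in all 6 libraries.

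The labels were checked on defining genes. KRT18 and KRT8, the keratin pair of simple epithelia, stood at 1332, 1374 and 1431 TPM and at 504, 539 and 576 TPM in the 3 H1299 libraries, but CDH1, the adherens-junction cadherin of epithelium, had 0 counts there. EPCAM and KRT19 were at 0.444 and 0.177 TPM on average. Of 17 tested epithelial keratin and junction genes 13 were higher in H1299, 11 of them 8-fold or more, and 3 in THP-1. TJP1 and CLDN1, tight-junction proteins, were at 41.9 ± 9.69 and 38.4 ± 7.61 TPM in H1299 against 0.537 ± 0.127 and 1.75 ± 0.127 TPM, while JUP, CLDN7 and OVOL1 were higher in THP-1. VIM (vimentin, a mesenchymal filament) was at 5319 to 6266 TPM in H1299. The shares of calls over all genes, against which such counts are read, are 43.1% higher in H1299 and 9.86% at 8-fold. DCBLD2, the membrane protein that the series is about, was at 247, 148 and 196 TPM in H1299 labelled control and at 98.4 TPM on average under the overexpression label. It thus goes against that label, which is why the groups are called by their labels. KRT18 reached 0.0148% and KRT8 0.0525% of their H1299 level in the THP-1 libraries (the level of these H1299 keratins was thus near 0 there).

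Of the 13892 genes tested, 84.8% were called different at an adjusted p under 0.05, 41.7% higher in THP-1 and 43.1% higher in H1299. A call alone therefore says little about a gene, and a difference of at least 8-fold (3 on the log2 scale) was used to describe what sets the lines apart. By that measure 1746 genes, 12.6% of those tested, were higher in THP-1 and 1370, or 9.86%, were higher in H1299. The genes of the first set held 32.2% to 32.3% of all TPM in THP-1 and 0.933% to 0.996% in H1299. The second set held 5.69% to 6.15% in H1299 and 0.242% to 0.246% in THP-1. The 8-fold set of the macrophage-like line thus held a far larger share of its TPM than the 8-fold set of the carcinoma line did. Some of the most abundant genes of the first set, such as FTH1, FTL and TIMP1, were also clearly present in H1299. Of the genes tested, 416 had 0 counts in H1299 and 209 had 0 counts in THP-1. Such genes pass the count filter only through the other line, so their direction was fixed in advance, and all are in the 8-fold sets. With library size alone as the scaling, the median log2 fold change of all genes moved from -0.03 to -0.46 and the calls split 4502 to 7455 instead of 5793 to 5987. In the second pair of groups 87.5% of 13809 genes were called. Of 10574 genes called in both pairs, 10209 (96.5%) had the same direction.

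Secreted proteins and iron storage led the THP-1 profile. IL1B, the inflammatory cytokine interleukin-1 beta, stood at 26484, 26683 and 26800 TPM in THP-1 and at 0.057, 0.258 and 0.049 TPM in H1299. CXCL8, the neutrophil-attracting chemokine interleukin-8, stood at 11156, 11163 and 11096 TPM against 0.053, 0.142 and 0 TPM. CHI3L1, a secreted chitinase-like glycoprotein, stood at 18380, 18589 and 18523 TPM and had 0 counts in H1299, which makes it at least 474604-fold higher. The groups lay apart by orders of magnitude in all 3 genes, and the THP-1 libraries hardly differed from each other. IL1RN, the antagonist that competes with IL-1 for its receptor, averaged 5356 ± 76.6 TPM in THP-1 (SD, n = 3) with 0 counts in H1299 (at least 136887-fold). IL1R1, the receptor itself, was at 25.2 TPM on average in THP-1 and 0.207 TPM in H1299, so ligand, antagonist and receptor were all higher in the same line. FTH1 and FTL, the heavy and light chains of ferritin, reached 44439 ± 188 and 17905 ± 279 TPM in THP-1. FTH1 alone was the most abundant transcript of every THP-1 library and was 69.6-fold higher than in H1299 (log2 6.12 ± 0.08 SE, adjusted p = 4.59e-11 by edgeR), where FTL (1832 ± 28.8 TPM) exceeded FTH1 (795 ± 33.3 TPM). The order of the chains was thus reversed between the lines. Both chains have many processed pseudogenes, which can take or give reads.

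Enzymes and inhibitors of matrix turnover formed the next group. TIMP1, an inhibitor of matrix metalloproteinases, was at 22964, 22985 and 22822 TPM in THP-1 and at 398, 310 and 289 TPM in H1299 (log2 6.35 ± 0.13). MMP9, a gelatinase, was at 2205 ± 21.5 TPM in THP-1 and had 2 counts in all of H1299, a ratio of 118656 with a counting interval of 32847 to 979789. MMP14, a membrane-bound metalloproteinase, was at 2524 ± 12.9 against 46.5 ± 5.67 TPM. Of the 26 matrix proteases and inhibitors on the list, all tested, 22 were higher in THP-1 (15 of them 8-fold or more) and 3 in H1299, and the median log2 fold change was 4.68. Those 3 include PLAU, the urokinase protease, at 638 ± 16.6 TPM in H1299 and 114 ± 3.2 TPM in THP-1. Its receptor PLAUR had the opposite lean, with 2189 ± 18.9 TPM in THP-1 and 280 ± 9.03 TPM in H1299. SPP1 (osteopontin), the secreted protein named in the title of the series, stood at 2225, 2202 and 2222 TPM in THP-1 against 4.34, 3.62 and 5.05 TPM in H1299, a log2 difference of 9.31 ± 0.09. Its receptor CD44 was at 1051 ± 9.05 and 467 ± 6.18 TPM. The list of SPP1-type and lipid-associated macrophage genes, chosen after studies of tumour macrophages, had 19 of 22 members higher in THP-1 and 15 at 8-fold or more, while CD9 (331 ± 26.1 against 21.2 ± 0.0229 TPM) and VCAN were higher in H1299.

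**Figure D1:**
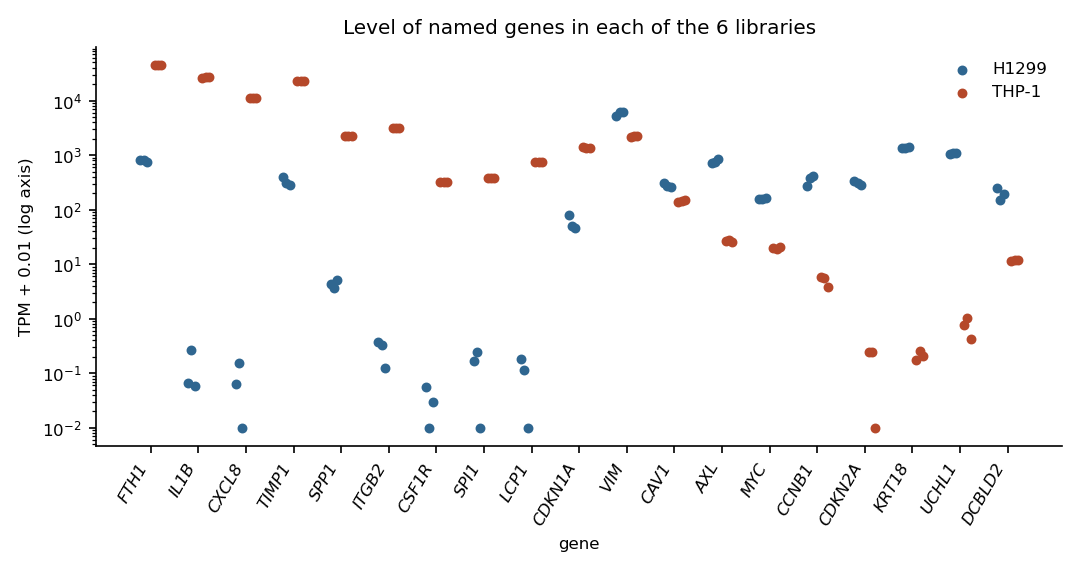
Level of 19 named genes in each of the 6 libraries, as TPM + 0.01 on a log axis; each point is 1 library, 3 per line. The THP-1 points of the abundant genes nearly coincide, IL1B, CXCL8, CSF1R, SPI1 and LCP1 are below 0.3 TPM in every H1299 library, and KRT18, UCHL1 and CDKN2A are at most 1.01 TPM in every THP-1 library.

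Most macrophage identity genes were higher in THP-1, while several were near 0 in both lines. Of 28 macrophage identity genes, 21 were tested, and all 21 were higher in THP-1, 20 of them 8-fold or more, with a median log2 fold change of 9.43 when genes at 0 in H1299 are set to their bound. Of the 28, 15 had 0 counts in H1299. Those tested among them passed the filter only through THP-1, so their direction was fixed in advance. ITGB2, the shared beta chain of the leukocyte integrins, was at 3130, 3149 and 3138 TPM in THP-1 and at 0.365, 0.323 and 0.113 TPM in H1299. CSF1R, the receptor through which macrophages receive their growth factor, was at 322, 317 and 316 TPM against 0.047, 0 and 0.02 TPM. CD68, a lysosomal protein used to stain macrophages, was the tested member below 8-fold, at 318 TPM in THP-1 and 136 TPM in H1299 on average, a 3.07-fold difference. The 7 members that were not tested include several that mark macrophages in tissue. MRC1, the mannose receptor, and CD163, the haemoglobin scavenger receptor, were at 0.006 and 0.262 TPM in THP-1. C1QA, C1QB and C1QC, the chains of complement C1q, lay at 0.065, 0.079 and 0.192 TPM, and FCGR3A and MNDA at 0.304 and 0.151 TPM. LYZ, the lysozyme gene that monocytes express abundantly, was at only 4.82, 4.3 and 4.31 TPM. Other scavenger receptors were present: MSR1, which takes up modified lipoproteins, was at 19.8, 17.6 and 21.4 TPM in THP-1 against 0.15, 0.112 and 0 TPM in H1299, and CD36, a fatty acid and lipoprotein receptor, at 17.1 ± 0.404 against 0.323 ± 0.152 TPM. Of 26 tested scavenger and efferocytosis genes 20 were higher in THP-1, 15 of them 8-fold or more, and 4 in H1299.

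All 22 tested genes of the 25 Fc and inhibitory myeloid receptors were higher in THP-1, 21 of them 8-fold or more. Of the 25, 14 had 0 counts in H1299, and those tested among them could only come out higher in THP-1. FCER1G and TYROBP, the adaptors that pass on the signal of activating receptors, were at 1249 ± 27.8 and 869 ± 12.7 TPM in THP-1, and at 0.137 and 2.56 TPM in H1299. SIRPA, the receptor that reads CD47 as a signal not to engulf a cell, was at 120 ± 1.02 against 0.304 ± 0.0895 TPM. Pattern recognition receptors were less uniform: 14 of 24 were tested, 9 were higher in THP-1 and 2 in H1299. CD14, the lipopolysaccharide co-receptor, was at 115 TPM and TLR2 at 75.2 TPM in THP-1, while RIGI, a cytosolic sensor of viral RNA, was at 1.8 TPM in THP-1 and 4.66 TPM in H1299. Of the phagocyte oxidase, the cytosolic subunit NCF1 stood at 722 TPM in THP-1 (at least 14614-fold higher, with reads that near-identical pseudogenes can share) and the membrane subunit CYBA at 1250 TPM. CYBB, the catalytic subunit, was called higher in THP-1 but reached only 0.792 TPM there, against 0.247 TPM in H1299; it was chosen for mention after its value was seen.

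Among 26 myeloid transcription factors, 25 were tested, 21 were higher in THP-1 (17 of them 8-fold or more), 3 were higher in H1299 and MYB was not called. SPI1, which encodes PU.1, was at 380, 383 and 380 TPM in THP-1 and at 0.161, 0.236 and 0 TPM in H1299 (log2 12.37 ± 0.19, adjusted p = 1.15e-10). IRF8, a partner of PU.1, was at 93.8 TPM with 0 counts in H1299 (at least 3732-fold), and the lymphoid and myeloid factor IKZF1 at 36.8 TPM, also with 0 counts there. MAF, a factor of late macrophage differentiation, was at 23.2 TPM with 1 count in H1299. CEBPB, a factor of inflammatory gene expression, was the most abundant at 710 ± 12.9 TPM against 18.3 ± 4.25 TPM. RUNX1, FLI1 and CEBPD differed far less, by 2.02, 1.83 and 1.52 on the log2 scale, as H1299 held 24.4, 14.8 and 15.2 TPM of them. KLF2 and KLF4, zinc-finger factors that restrain inflammatory genes in myeloid cells, were higher in H1299, KLF2 at 110 ± 27 TPM against 1.43 ± 0.351 TPM. Membership of the myeloid list therefore did not fix the direction.

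Promoters of the 8-fold genes were searched for short binding motifs on both strands, in the 300 bases around the start site that RefSeq's GRCh38.p14 table gives. The 5 motifs were the PU.1 core GAGGAAGT, the AP-1 element TGACTCA, the TEAD motif GGAATGT, the cyclic AMP element TGACGTCA and the E2F core TTTGGCGC, none of which contains another. The PU.1 core was found in 65 of 1253 promoters matched to the 1725 named genes 8-fold higher in THP-1 (5.19%) and in 12 of 1062 matched to the 1356 higher in H1299 (1.13%). It was in 2.51% of the 11086 promoters matched to all genes tested and in 2.54% of all 27305 promoters in the table. The AP-1 element was in 5.91% of the THP-1 set, 2.17% of the H1299 set and 3.04% of all tested. The TEAD motif was in 2.79% and 3.48% (2.22% of all tested), the cyclic AMP element in 1.68% and 2.35% (3.18%), and the E2F core in 0.638% and 1.51% (1.11%). Over all 27305 promoters the AP-1 element was in 4.92%, TEAD in 3.48%, the cyclic AMP element in 1.98% and the E2F core in 0.659%. Against that background the AP-1 share of the THP-1 set stood out less, and the TEAD share of the H1299 set was equal to it. Among the lists, given as a description without a test, 7 of 27 matched haematopoietic signalling genes held the PU.1 core (25.9%) and 6 of 26 matched S-phase genes held the E2F core (23.1%). In other lists the PU.1 core was in 1 of 21 macrophage identity genes (4.76%) and 1 of 20 Fc and inhibitory receptors (5%), and the E2F core in 1 of 24 mitosis genes (4.17%). A match is a string of letters and does not show that a factor binds there.

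The 5 promoters below are shown because they carry these motifs in genes that the results turn on, all in lower case with the motif or its reverse complement in capitals. TYROBP lies on the minus strand at chr19:35908246-35908545, with the PU.1 core as its reverse complement 4 bases before the start site. LCP1 (plastin-2) lies on the minus strand at chr13:46182128-46182427, with the motif 185 bases before the start. BTK, a signalling kinase of B cells and macrophages, lies on the minus strand at chrX:101390747-101391046 and holds its reverse complement 2 times, 163 and 21 bases before the start. CXCL8, on the plus strand at chr4:73740319-73740618, holds the AP-1 element 130 bases before the start. MCM6, a subunit of the replicative helicase, on the minus strand at chr2:135876394-135876693, holds the E2F core 2 times, 144 and 82 bases before the start.
TYROBP: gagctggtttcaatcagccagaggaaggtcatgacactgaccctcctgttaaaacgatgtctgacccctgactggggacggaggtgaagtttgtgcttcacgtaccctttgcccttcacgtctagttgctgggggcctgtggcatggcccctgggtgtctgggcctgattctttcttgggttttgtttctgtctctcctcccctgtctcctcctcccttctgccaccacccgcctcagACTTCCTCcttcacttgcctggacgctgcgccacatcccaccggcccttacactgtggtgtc
LCP1: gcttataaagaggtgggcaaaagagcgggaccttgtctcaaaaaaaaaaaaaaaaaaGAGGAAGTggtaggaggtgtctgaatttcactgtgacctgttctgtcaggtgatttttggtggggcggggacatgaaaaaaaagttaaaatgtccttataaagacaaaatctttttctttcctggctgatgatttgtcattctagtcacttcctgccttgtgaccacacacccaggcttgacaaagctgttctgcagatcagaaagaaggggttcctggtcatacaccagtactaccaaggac
BTK: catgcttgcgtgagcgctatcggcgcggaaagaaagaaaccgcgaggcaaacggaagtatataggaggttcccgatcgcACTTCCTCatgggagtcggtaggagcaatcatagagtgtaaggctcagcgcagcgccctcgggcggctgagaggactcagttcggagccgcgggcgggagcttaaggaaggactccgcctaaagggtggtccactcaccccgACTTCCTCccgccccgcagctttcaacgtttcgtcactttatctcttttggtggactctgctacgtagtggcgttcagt
CXCL8: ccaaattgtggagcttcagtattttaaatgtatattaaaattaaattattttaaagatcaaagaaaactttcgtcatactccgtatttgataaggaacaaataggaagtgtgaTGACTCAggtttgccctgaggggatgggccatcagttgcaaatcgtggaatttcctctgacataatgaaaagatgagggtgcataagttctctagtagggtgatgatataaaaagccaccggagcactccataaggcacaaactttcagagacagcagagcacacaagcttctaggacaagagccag
MCM6: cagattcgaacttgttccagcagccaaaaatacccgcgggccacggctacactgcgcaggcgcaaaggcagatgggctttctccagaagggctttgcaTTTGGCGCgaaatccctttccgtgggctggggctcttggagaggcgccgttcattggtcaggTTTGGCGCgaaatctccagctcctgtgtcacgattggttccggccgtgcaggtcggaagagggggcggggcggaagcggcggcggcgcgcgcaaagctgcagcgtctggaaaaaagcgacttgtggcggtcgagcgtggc
The first 4 genes were higher in THP-1. BTK stood at 20.9, 21.5 and 20.1 TPM against 0.125, 0.071 and 0.199 TPM in H1299. MCM6 was higher in H1299, at 84.3, 60.4 and 81.1 TPM against 10.2, 10.2 and 10.9 TPM. BTK and MCM6 were picked for display after their values were seen.

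Blood cells favour certain copies of many widely expressed genes, and 29 such paralogue pairs were compared by the share of the blood-cell member in the pair's summed mean TPM. That member is called blood-restricted here as a label only, since not all are confined to blood cells. In H1299, PIK3CD and FMNL1 made up 47.2% and 41.4% of their pairs. The blood-restricted member was higher in THP-1 in 28 of 29 pairs, 8-fold or more in 22. Over all genes tested these shares were 41.7% and 12.6%. PARVG and PRKCB made up 0% of their pairs in H1299 and could only come out higher in THP-1. The widespread member was higher in H1299 in 13 pairs, higher in THP-1 in 11 and not called in 5. LCP1 and PLS3, actin-bundling plastins, changed places: LCP1 was at 751, 756 and 758 TPM in THP-1 and 0.177, 0.103 and 0 TPM in H1299, and PLS3 at 5.21, 4.42 and 5.53 TPM in THP-1 and 56.2, 36.5 and 49 TPM in H1299. LCP1 was 99.3% of the pair in THP-1 and 0.197% in H1299. DOCK2 and DOCK1, activators of the GTPase Rac, did the same, with DOCK1 at 0.011, 0 and 0.027 TPM in THP-1 against 22.4, 15.9 and 18.3 TPM. In the Rac pair itself the widespread member stayed, since RAC1 was at 183, 178 and 182 TPM in THP-1 and 290, 248 and 284 TPM in H1299, while RAC2 went from 0.176, 0.318 and 0.05 TPM in H1299 to 1361, 1382 and 1375 TPM. A further kind is shown by TNFRSF1B and TNFRSF1A, the receptors of TNF. TNFRSF1B was 88.8% of the pair in THP-1 and 0.579% in H1299, with TNFRSF1A at 370 ± 12 TPM in H1299 and 56.8 ± 1.98 TPM in THP-1. The immunoproteasome subunits PSMB8, PSMB9 and PSMB10 made up 58%, 38.1% and 38% of their pairs in THP-1 and 20.5%, 3.92% and 4.49% in H1299, so these pairs were mixed in both lines. In 2 pairs the share was not larger in THP-1. ARHGEF6 was 17.4% of its pair there and 19.8% in H1299, as both members were higher in THP-1. SLC2A3, a glucose transporter, was 11.4% and 12.9% of its pair and was not called, with 23.5, 22.1 and 22 TPM in THP-1 and 26, 18.3 and 25.3 TPM in H1299 (adjusted p = 0.0634, groups overlapping).

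**Figure D2:**
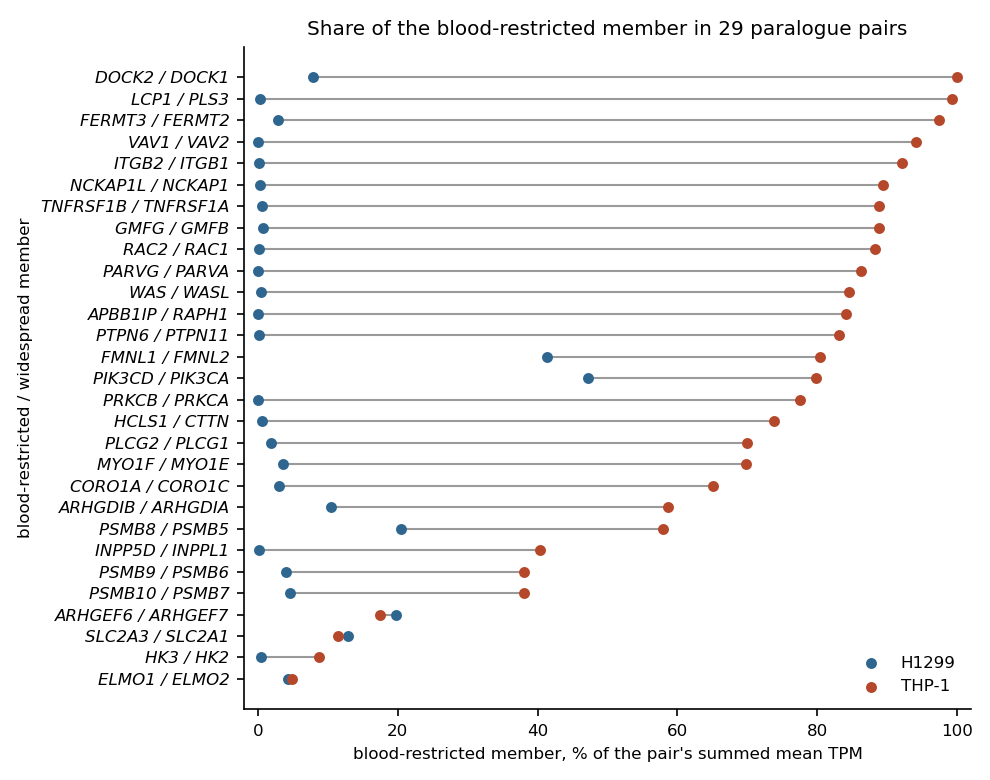
Share of the member labelled blood-restricted in the summed mean TPM of 29 paralogue pairs, in percent, with 1 point per line joined by a bar; means are over 3 libraries. Not all of these members are confined to blood cells. THP-1 lies to the right in 27 pairs, and the 2 lines are within a few percent of each other for ARHGEF6, SLC2A3 and ELMO1.

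The wider lists of blood-cell genes leaned to THP-1. Of 31 tested haematopoietic signalling genes 30 were higher in THP-1 and 27 of them 8-fold or more. The exception, the kinase TEC, was 1.46-fold higher in H1299, and its call was lost without THP-1 replicate 2. All 22 haematopoietic actin regulators were higher in THP-1, 20 of them 8-fold or more. Over all genes tested 41.7% were higher in THP-1, 12.6% by 8-fold or more. Of the listed genes, 8 signalling genes and 2 actin regulators had 0 counts in H1299. Those tested among them passed the filter only through THP-1, so their direction was fixed in advance. Structural genes of adherent cells were split. FLNA, the filamin that crosslinks actin, was at 490, 455 and 474 TPM in H1299 and 5.92, 4.96 and 5.1 TPM in THP-1, and ACTN4 at 1311 ± 76.2 against 171 ± 4.82 TPM. The adhesion-site proteins ZYX and TLN1 were higher in THP-1, at 745 ± 5.85 and 385 ± 3.27 TPM against 148 ± 16.3 and 104 ± 7.02 TPM. Of 27 tested matrix integrin and focal adhesion genes 13 were higher in THP-1 and 12 in H1299 (12 and 13 with library size as the scaling), with ITGA5, the fibronectin receptor chain, at 1252 ± 11.2 TPM in THP-1 against 46.1 ± 1.41 TPM. The counts of this list lie near the shares over all genes tested, 41.7% and 43.1%.

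Chemokines and cytokines leaned to THP-1 as lists. All 16 tested chemokines of 26 were higher there, 15 of them 8-fold or more, and 16 of the 26 had 0 counts over the H1299 group. A chemokine with 0 counts in H1299 passed the filter only through THP-1, so its direction was fixed in advance. CCL20 and CCL3, attractants of lymphocytes and monocytes, were at 4910 ± 61.4 and 1742 ± 53.8 TPM. Of 23 tested cytokines 19 were higher in THP-1 and 4 in H1299. CSF1, the growth factor that CSF1R binds, was at 1461 ± 27.6 TPM in THP-1 against 0.896 ± 0.148 TPM, and GDF15, a stress-induced cytokine, at 1196 ± 20.3 against 1.77 ± 0.759 TPM. None of the 4 higher in H1299 reached 8-fold: MIF, a constitutively made cytokine, was 2.01-fold higher, TGFB2 1.56-fold, IL15 1.64-fold and IL12A 3.68-fold. Of these, MIF was not called in the second pair, TGFB2 was higher in THP-1 there, and the IL15 call was lost under 8 alternatives. Of the 23 tested NF-kB targets and regulators 22 were higher in THP-1, the exception being PLAU.

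Ligands and receptors were set side by side for 51 known pairs, 47 ligands and 42 receptors. Both partners were higher in THP-1 in 16 pairs, CSF1 with CSF1R and CCL5 with CCR1 among them. In 10 pairs the ligand was higher in H1299 and the receptor in THP-1. These were CD47 with SIRPA, MIF with CD74, GAS6 and PROS1 with MERTK, PGF with FLT1, PLAU with PLAUR, PVR with CD226, SEMA3A with NRP1, SEMA3C with PLXND1 and THBS1 with CD36. The lean of CD47 is small (70.4 ± 8.74 TPM in H1299, 53.7 ± 2.73 TPM in THP-1) and turned round in the second pair, where its log2 fold change was 0.20. The reverse layout, with the ligand higher in THP-1 and the receptor higher in H1299, was seen in 4 pairs: LIF with LIFR, TNF with TNFRSF1A, and HBEGF and AREG with EGFR. LIFR was low in both lines, at 2.03 TPM in H1299 and 1.09 TPM in THP-1. TNFRSF1A was at 56.8 TPM in THP-1 too, and TNFRSF1B, the other TNF receptor, was higher there (449 against 2.16 TPM). HBEGF and AREG, growth factors of the EGF family, were at 1015 ± 4.06 and 972 ± 23 TPM in THP-1 against 9.85 ± 1.18 and 0.746 ± 0.0447 TPM. EGFR was at 18.5, 15.3 and 19.2 TPM in H1299 and 2.78, 3.04 and 2.64 TPM in THP-1. TGFA, another EGFR ligand, was at 28.5 ± 3.84 TPM in H1299, so that both lines held a ligand and H1299 more of the receptor. CXCR2, a receptor of CXCL8, was at 0.0387 TPM in THP-1 and 0 in H1299. Among the receptor kinases that take up dying cells, AXL and TYRO3 were higher in H1299, AXL at 717, 760 and 865 TPM against 26.4, 28.3 and 25.4 TPM and TYRO3 at 17.8, 22.5 and 19.6 against 2.46, 3.47 and 3.13 TPM. MERTK was higher in THP-1, at 36.7, 36 and 36.9 TPM against 14.4, 12 and 14 TPM. Angiogenic genes were split, 15 higher in THP-1 and 12 in H1299 of 32 tested, and the lean turned with the setting: 12 and 16 with library size as the scaling, 13 and 15 on log2(TPM + 1), and 13 and 16 in the second pair. Over all genes tested the shares were 41.7% and 43.1%, so the split of this list is not particular to it. VEGFA, the main endothelial growth factor, was at 375 ± 3.47 TPM in THP-1 and 29.6 ± 5.63 TPM in H1299, while CCN1 (753 ± 52.1 against 20.4 ± 0.966 TPM) and THBS1 (132 ± 28.7 against 4.89 ± 0.323 TPM) were higher in H1299. These are mRNA levels, and no protein or binding was measured.

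**Figure D3:**
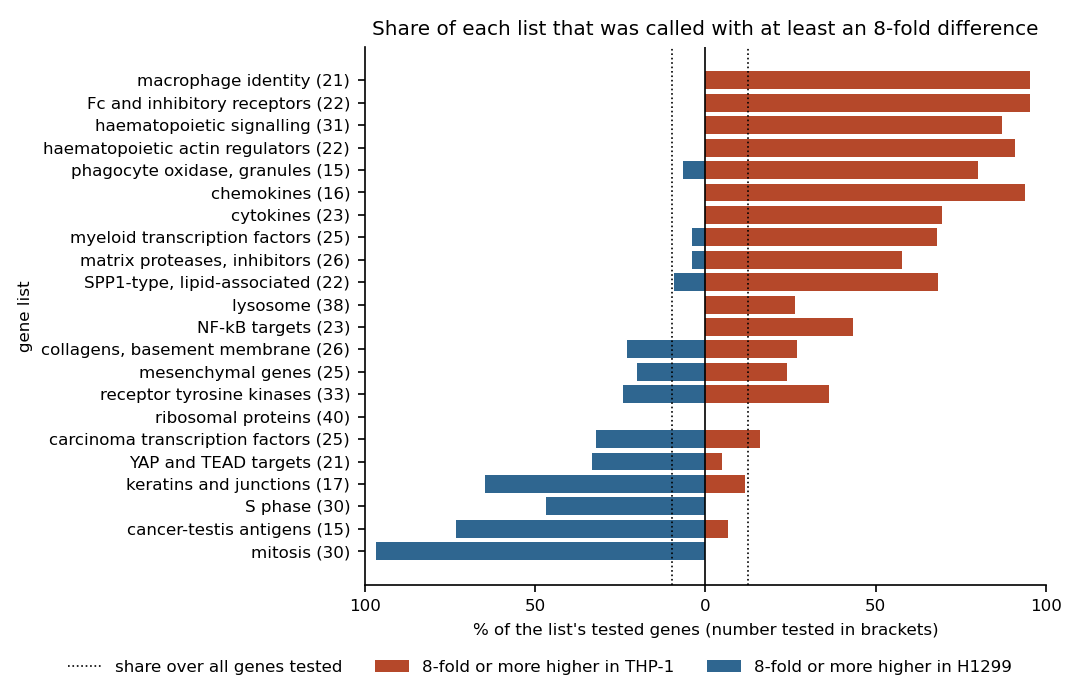
Share of the tested genes of 22 lists that were called with at least an 8-fold difference, in percent, to the right where higher in THP-1 and to the left where higher in H1299. Dotted lines mark the shares over all genes tested, 12.6% and 9.86%; immune lists lie far to the right, mitosis, cancer-testis and keratin genes far to the left, and no ribosomal gene passes 8-fold.

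Genes of DNA replication and mitosis were higher in H1299 without exception among those listed. All 30 S-phase genes and all 30 mitosis genes were higher in H1299, 14 and 29 of them 8-fold or more, with median log2 fold changes of -2.85 and -4.85 against -0.03 over all genes. CCNB1, the cyclin that starts mitosis, was at 267, 374 and 414 TPM in H1299 and 5.73, 5.55 and 3.79 TPM in THP-1. UBE2C, which marks mitotic proteins for destruction, was at 290, 401 and 386 TPM against 3.6, 4.34 and 7.16 TPM. MCM7, a helicase subunit, was at 506, 637 and 657 TPM against 35.1, 38.2 and 34.1 TPM. The groups did not overlap in any of the 3, as in 85.6% of all genes tested, and H1299 replicate 1 was the lowest of its group in each. The summed S-phase list was 3365 to 3913 TPM in H1299 and 415 to 433 TPM in THP-1, and the mitosis list 2607 to 3691 against 115 to 128 TPM. In bulk RNA, fewer cells in the cycle and less RNA per cell cannot be told apart.

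Cell-cycle inhibitors did not move as a block. CDKN1A, which encodes p21, was at 1392, 1380 and 1367 TPM in THP-1 and 81, 50.9 and 46.1 TPM in H1299 (log2 4.82 ± 0.20, adjusted p = 3.15e-08). CDKN2A, which encodes p16 and ARF, was at 333, 305 and 280 TPM in H1299 and at 0.239, 0.236 and 0 TPM in THP-1 (log2 -10.63 ± 0.25). The 2 inhibitors thus had opposite sides. CDKN1B (p27) was higher in H1299, at 51.5 ± 3.57 against 19.3 ± 0.746 TPM. Cyclin D1 (CCND1) was 2.01-fold higher in THP-1 despite the low S-phase genes, at 446 ± 3.7 against 269 ± 27.7 TPM.

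**Figure D4:**
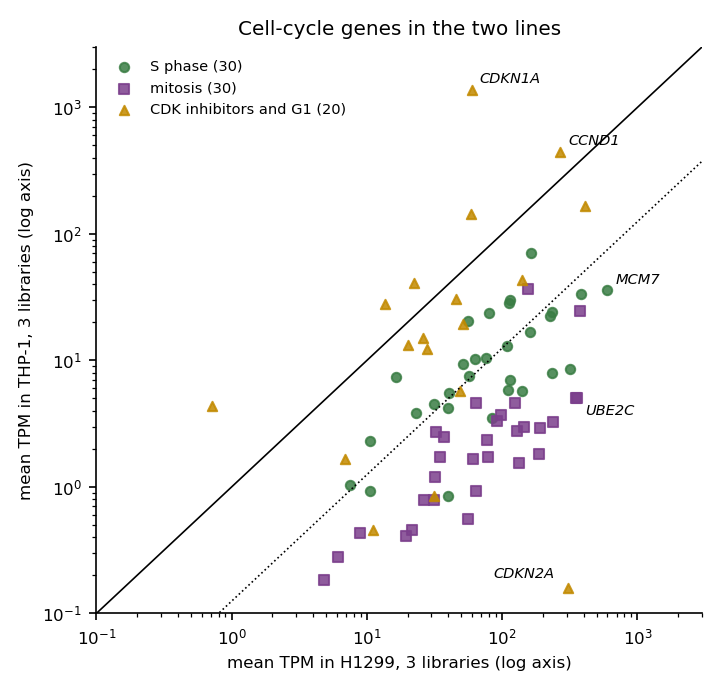
Mean TPM over 3 libraries in H1299 (x, log axis) and THP-1 (y, log axis) for 30 S-phase, 30 mitosis and 20 CDK inhibitor and G1 genes; the solid line marks equal levels and the dotted line an 8-fold higher level in H1299. Every S-phase and mitosis gene lies below the solid line, and CDKN1A and CDKN2A lie on opposite sides of it.

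Many carcinoma transcription factors, germ-line antigens and neuronal genes were higher in H1299, while others leaned to THP-1. Of 25 tested carcinoma transcription factors 17 were higher in H1299 (8 of them 8-fold or more) and 7 in THP-1 (4 of them 8-fold or more). Over all genes tested 43.1% were higher in H1299 and 41.7% in THP-1. FOSL1, the AP-1 member FRA-1, was at 1019, 1085 and 1187 TPM in H1299 and 69.2, 68.6 and 68.9 TPM in THP-1. SOX9 was at 81.4 ± 6.52 against 0.662 ± 0.134 TPM, TEAD4 at 103 ± 13.9 against 4.56 ± 0.693 TPM, and MYC at 154, 160 and 165 against 20, 19.3 and 20.3 TPM. TEAD1, the family member of TEAD4, did not pass the test (18.5, 8.41 and 16.2 TPM in H1299 and 13.4, 16.6 and 15 TPM in THP-1, adjusted p = 0.0519), and its groups overlapped. HMGA1, a chromatin protein of dividing and tumour cells, was abundant in both lines and 1.77-fold higher in THP-1. Of 21 tested YAP and TEAD targets 15 were higher in H1299, CCN1 and AXL the most abundant, and 6 in THP-1, among them ANKRD1 at 52.2 ± 1.44 against 12.3 ± 3.09 TPM. TBX3 and TFAP2C were on the THP-1 side, at 13.7 and 6.87 TPM against 0.118 and 0 TPM.

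Cancer-testis antigens, germ-line proteins that tumours can switch on, were higher in H1299 in 13 of 15 tested genes, 11 of them 8-fold or more. Over all genes tested these shares were 43.1% and 9.86%. Of the 25 listed, 11 had 0 counts in THP-1, 5 of these in both lines. Those tested among them passed the filter only through H1299, so their direction was fixed in advance. MAGEA4 was at 871 ± 67.5 TPM in H1299 and 46 ± 1.09 TPM in THP-1, and MAGEA6 at 194 ± 27.3 TPM with 3 counts in THP-1. GAGE12F, GAGE2A and GAGE12G were listed at 1203, 1185 and 692 TPM. The GAGE, MAGEA and CTAG1 genes are near-identical copies, so the split of reads within each family is uncertain. PRAME was present in both lines, at 173 ± 17.5 TPM in H1299 and 224 ± 5.1 TPM in THP-1, and MAGEB2 was the THP-1 member, at 46.4 TPM with 0 counts in H1299. UCHL1, a neuronal ubiquitin hydrolase, was at 1031, 1105 and 1082 TPM in H1299 and 0.77, 1.01 and 0.422 TPM in THP-1. TUBB3, the neuronal beta-tubulin, was at 332 ± 71.5 against 9.28 ± 0.654 TPM. Of 21 tested neuronal-type genes 14 were higher in H1299 and 5 in THP-1, 8 and 4 of them 8-fold or more. SYP (synaptophysin), from the list of lung and neuroendocrine genes, was 14-fold higher in THP-1 at 46.5 ± 4.99 TPM. Of the 6 tested genes of that list, 4 were higher in THP-1, all 4 by 8-fold or more. The other 2 were higher in H1299, 1 of them 8-fold or more. Mesenchymal genes were split evenly, 11 and 11 of 25 tested, near the shares over all genes tested (41.7% and 43.1%). VIM was 2.23-fold higher in H1299, but FN1 (fibronectin) was at 1207, 1207 and 1218 TPM in THP-1 and only 15.5, 14.3 and 13.6 TPM in H1299.

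Listed targets of the KMT2A-MLLT3 fusion, which THP-1 is known to carry, did not lean to either line. Of 16 listed targets 7 were higher in THP-1 and 7 in H1299 (5 and 8 with library size as the scaling, 9 and 7 in the second pair), with a median log2 fold change of -0.07. These counts lie near the shares over all genes tested, 41.7% and 43.1%, so they say nothing particular about the list. HOXA9, the best-known target in leukaemia, was at 21.5, 21.8 and 22.6 TPM in THP-1 and 19.2, 16.5 and 20.7 TPM in H1299. That is 1.37-fold higher, and the call was lost with library size as the scaling and in both fits on TPM. MEIS1, its partner, had 0.0113 TPM in THP-1 and 0.567 TPM in H1299, and HOXA7 0.0563 TPM against 26.8 ± 1.11 TPM. CPEB2, ZEB2 and MEF2C were higher in THP-1, at 65, 58.5 and 32.3 TPM against 2.36, 10.7 and 6.27 TPM. No undifferentiated THP-1 library was at hand to say what the levels were before PMA.

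Genes of other blood and stromal cells were found in THP-1 at some height. GNLY, a granule protein of cytotoxic lymphocytes, was at 151, 157 and 148 TPM with 0 counts in H1299 (at least 1813-fold), and TRAC, the constant region of the T-cell receptor alpha chain, at 33.4, 32.1 and 29.9 TPM. Of the 14 lymphoid genes listed 10 were not tested, among them CD3E and MS4A1 at 0 in THP-1, and all 4 tested were higher in THP-1. Of the 14, 7 had 0 counts in H1299, and any tested among them could only come out higher in THP-1. All 7 tested endothelial and fibroblast markers of 14 were higher in THP-1, with PECAM1, which myeloid cells share with endothelium, at 168 ± 1.86 TPM and TIE1 at 149 ± 1.96 TPM, but CDH5 and COL3A1 were at 0. The contribution of other cells to these levels was not tested. AZU1 and ELANE, granule genes of myeloid precursors, were at 13.1 ± 1.46 and 2.11 ± 0.391 TPM, MPO at 0.0833 TPM and CD34 at 0.0123 TPM.

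Metabolic and housekeeping lists were mixed, and the counts of several moved with the scaling. At 8-fold or more, 10 of 38 lysosomal genes were higher in THP-1 and 0 in H1299. For glycolysis and hypoxia these counts were 7 and 1 of 30, and for MHC class I and peptide loading 3 and 1 of 20. Over all genes tested the 8-fold shares were 12.6% and 9.86%. GAPDH, a glycolytic enzyme often used as a reference gene, was at 16112, 17568 and 16906 TPM in H1299 and 2176, 2189 and 2188 TPM in THP-1, a 6.39-fold difference. ENO1, TPI1 and LDHB were 4.05-, 3.54- and 3.54-fold higher in H1299, yet of 30 tested glycolysis and hypoxia genes 17 were higher in THP-1 and 10 in H1299 (11 and 12 with library size as the scaling). NDRG1, induced by low oxygen, was at 352 ± 8.51 TPM in THP-1 against 6.49 ± 0.562 TPM. Of 40 ribosomal protein genes 33 were higher in H1299 and 1 in THP-1, none by 8-fold, with a median of -0.67, or -1.10 with library size as the scaling. With that scaling 40 were higher in H1299 and 0 in THP-1. In the second pair 13 ribosomal genes were higher in THP-1 and 22 in H1299. Of 13 mitochondrially encoded genes 10 were higher in THP-1 and 0 in H1299, but 7 and 3 with library size as the scaling and 7 and 2 in the second pair, so their direction is not settled. Of 23 tested cholesterol synthesis genes 14 were higher in H1299 and 4 in THP-1. In that list the H1299 libraries themselves differed, as FDPS was at 835, 433 and 340 TPM, and the summed list at 2011 to 3580 TPM against 2467 to 2468 TPM in THP-1. SQLE, its rate-controlling epoxidase, stood apart at 1341, 1334 and 1349 TPM in THP-1 against 153, 77.3 and 92.8 TPM in H1299. Lysosomal genes were higher in THP-1 in 33 of 38 cases, with a median of 1.81 (1.38 with library size as the scaling), among them the proteases CTSB and CTSL at 1783 ± 4.57 and 1618 ± 17.2 TPM. MHC class I and peptide-loading genes were higher in THP-1 in 18 of 20, with B2M at 6357, 6248 and 6323 TPM against 1474, 1144 and 932 TPM. CD74, the class II invariant chain, was at 136 ± 0.859 TPM in THP-1 and 0.0393 TPM in H1299.

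The counts of interferon-stimulated genes differed between the pairs of groups. In the labelled-control libraries 19 of 34 tested were higher in THP-1 and 10 in H1299, and in the second pair 31 of 36 and 5. IFITM3, a membrane protein that restricts viruses, was at 139, 131 and 124 TPM in THP-1 and 465, 415 and 344 TPM in H1299 (log2 -1.36 ± 0.12), but its log2 fold change was 0.59 in the second pair, where THP-1 averaged 385 TPM and H1299 328 TPM. ISG15 and SAMHD1 turned round in the same way, from -0.96 to 0.70 and from -0.55 to 1.10. The direction of these 3 genes therefore depends on which pair of groups is used, and the difference between the pairs was not tested.

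Differences were also read along the chromosomes. The 10795 coding genes with at least 5 TPM in either line were scanned in windows of 15 neighbours, 10473 windows in all. Windows with a median difference of 8-fold or more formed 6 separate stretches leaning to THP-1 and 6 leaning to H1299. Several of them hold gene families. The strongest on the THP-1 side held the CXC chemokines on chromosome 4 (median log2 7.22, 13 of 15 genes higher in THP-1), followed by the metalloproteinase cluster on chromosome 11 (6.28, 12 of 15). On the H1299 side the first 3 held the MAGEA and CSAG genes and the GAGE genes on chromosome X (-10.03 and -9.25) and the HOXB cluster on chromosome 17 (-4.71, all 15 genes higher in H1299).

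The third stretch on the THP-1 side held mostly unrelated genes. Its strongest window of 15 genes ran from NDUFS5 to SMAP2 and included MACF1, with 13 genes higher in THP-1 and 0 in H1299. For the description below the ends were redrawn to BMP8A and CITED4, which leaves out NDUFS5 and MACF1. On chromosome 1, 25 of the 26 coding genes were tested from BMP8A to CITED4 (chr1:39491646-40862366, GRCh38, 1371 kb), and all 25 were called higher in THP-1, 18 of them 8-fold or more, the log2 fold changes running from 1.24 to 13.99 around a median of 4.43. In the second pair 24 of the 25 were called higher in THP-1 and 0 in H1299. The stretch holds unlike genes: CAP1, a regulator of actin turnover, at 7888, 7892 and 7991 TPM against 254, 257 and 272 TPM, the lysosomal thioesterase PPT1 at 1925 ± 1.4 against 79.4 ± 4.46 TPM, the lipid transporter MFSD2A at 965 ± 11.1 against 0.956 ± 0.253 TPM, the GTPase regulator SMAP2 at 2398 ± 0.488 against 13.1 ± 2.13 TPM, the MYC relative MYCL at 40 ± 1.84 against 0.243 ± 0.108 TPM, and the subunit of a general transcription factor NFYC at 831 ± 7.89 against 97.5 ± 3.55 TPM. COL9A2, a collagen chain, was at 176 ± 4.2 TPM with 1 count in H1299. The flanking genes differed less. MACF1, the next tested gene before the stretch, was at 52 ± 1.04 TPM in THP-1 and 88.5 ± 16.6 TPM in H1299 (log2 -0.15 ± 0.11, adjusted p = 0.239), and CTPS1, the next after it, at 105 ± 3.25 and 87.8 ± 15.6 TPM (0.52 ± 0.12, adjusted p = 0.00303), so CTPS1 was itself called higher in THP-1. The ends were set after the values were seen, so that all 25 were called and that MACF1 is a flank follow in part from that choice. No test is given. DNA copy number was not measured and its part in the result was not tested.

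**Figure D5:**
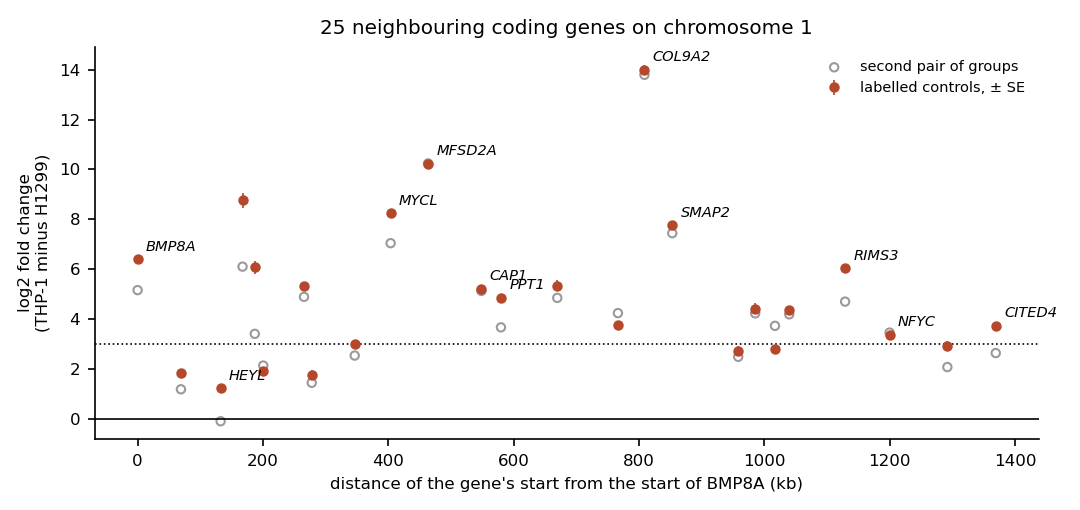
Log2 fold change (THP-1 minus H1299) of the 25 tested coding genes from BMP8A to CITED4 on chromosome 1, against the distance of each gene's start from that of BMP8A in kb; filled points are the labelled controls with SE, open points the second pair of groups, and the dotted line marks 8-fold. All 25 filled points lie above 0, 18 at or above the dotted line; HEYL is the only open point below 0.

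Genes around CDKN2A on chromosome 9 leaned the other way. This stretch is not among the 6 that the scan gave for H1299, and it was picked after the values were seen. The 4 tested coding genes from KLHL9 to CDKN2B (chr9:21329671-22009363, 680 kb) had 0, 2, 5 and 1 counts over the 3 THP-1 libraries. These were KLHL9 (7.26 ± 1.87 TPM in H1299), MTAP, an enzyme of methionine salvage (37.2 ± 2.44 TPM), CDKN2A (306 ± 26.7 TPM) and CDKN2B, which encodes p15 (14.8 ± 1.99 TPM). KLHL9 was at 0 counts in THP-1, and the remaining 3 lay at or below 0.158 TPM on average. All 4 were called higher in H1299 in the second pair as well. These 4 genes passed the count filter only through H1299, so their direction in the labelled controls was fixed in advance. The second pair holds the same lines, so its calls add no separate support. HACD4, the next tested gene on 1 side, was at 1.52 ± 0.0989 TPM in THP-1 and 0.0353 ± 0.0165 TPM in H1299 (log2 5.67 ± 0.26). DMRTA1 on the other side was at 0.116 ± 0.0196 and 1.94 ± 0.263 TPM (log2 -3.75 ± 0.22). The flanking genes thus differed as well, in opposite directions. MTAP is otherwise made by nearly all cells. Whether the DNA of this stretch was present in THP-1 was not tested.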

How the data were processed

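RNA was extracted with Trizol, mRNA was enriched and libraries were made with NEBNext Ultra RNA reagents, per the labels' protocols. The submitters' processing notes name fastp 0.18.0, Bowtie2 2.2.8, HISAT2, StringTie 1.3.1, RSEM and hg38. The annotation release and strand handling: not given in the sources used here. The authors deposited estimated counts and TPM per gene. Estimated counts were rounded, genes with low counts were removed (filterByExpr, minimum 10), and the lines were compared by edgeR 4.0.16 (quasi-likelihood, TMM scaling, Benjamini-Hochberg adjustment, threshold 0.05). Fold changes are THP-1 minus H1299, and levels are mean TPM ± SD over 3 libraries. The SE given is the size of the log2 fold change divided by the square root of the test's F statistic. It rests on a spread that the fit shares between the lines, though H1299 scattered more (15.4% against 1.44%). Where a line had 0 counts, the fold is a lower bound against 3 counts over the group. With 1 to 3 counts, the ratio has a 95% interval, which covers counting error only. Alternatives used DESeq2 1.42.0 and limma 3.58.1 in R 4.3.3. Positions come from GENCODE 29, matched to 98.9% of gene identifiers. Promoters come from RefSeq. The groups, the 49 gene lists and the tests were chosen with earlier results of these data known. Named genes were the 15 most abundant 8-fold genes per line, up to 4 members per list and direction, and all members of the paralogue, ligand-receptor, transcription factor, KMT2A, identity and marker lists. Genes along the chromosomes, BTK, MCM6 and CYBB were added after their values were seen. Library totals were 19572131 to 24111179. The scripts were tested on simulated data. Some genes are not reported here.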

Additional observations from a re-analysis of the deposited data

How the results depend on the processing

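The genes called (11780, of which 5793 were higher in THP-1 and 5987 in H1299) stayed within 1.5 times under every alternative but a test against 2-fold, which called 6801, 3419 and 3382. The genes called with at least 8-fold difference stayed so too, except on log2(TPM + 1), where 823 were higher in THP-1 and 606 in H1299, since the pseudocount shrinks differences of low genes. Leaving out each library in turn gave 11362 to 12238 genes called, 5574 to 6141 higher in THP-1 and 5754 to 6097 in H1299, and 1763 to 1885 and 1355 to 1446 genes at 8-fold. Leaving out each library of the second pair gave 11835 to 12260. With the replicate number as a block 11664 genes were called (5783 and 5881). Same-numbered libraries did not deviate together (correlations -0.00, 0.00 and 0.04), and differently numbered ones gave -0.04 to 0.03. The THP-1 libraries scattered by only 1.44% beyond counting noise, so the correlations cannot tell whether libraries were paired. In the second pair CD47 (0.20), IFITM3 (0.59), ISG15 (0.70), SAMHD1 (1.10), TGFB2 (1.85) and SLC2A3 (-0.95) had the opposite direction. SLC2A3, not called, turned to -0.19 with library size as the scaling and to -0.02 in both fits on TPM. TEAD1, not called, went to -0.06 with library size. The cause was not tested. Depth limits genes near 0 counts, where only bounds or ratios are given.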
